A study of Mus musculus with 4 samples.

Results

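The mitochondrial genome was represented by 37 of the 56748 genes of the deposited expression table, chosen as every row whose chromosome field is MT. They comprise 13 protein-coding genes, 2 ribosomal RNA (rRNA) genes and 22 transfer RNA (tRNA) genes. Their levels were compared in the lenses of mice aged 10 to 12 days, with 2 libraries of the genotype Fsp1-cre;Pdgfrb+/D849V (mutant) and 2 control libraries. Cre was driven by the promoter of Fsp1 (S100a4), the D849V allele lay at the endogenous Pdgfrb locus, and neither allele is restricted to the lens. According to the study's methods, the line came from a mixed background, was backcrossed to the FVB/N strain and received a Rosa-LSL-tdTomato reporter. Lenses of several mice were pooled for each library, which was made from poly(A) RNA. The labels give Fsp1-cre;Pdgfrb+/+ for both control libraries, whereas the study's methods also place cre-negative Pdgfrb+/+ and Pdgfrb+/D849V mice in the control pools. Values per gene do not tell the D849V allele from the wild-type allele, so the genotype of a library could not be checked.

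As background, mitochondrial DNA is a small circle without introns that encodes core subunits of the respiratory chain and of the ATP synthase, together with the rRNAs and tRNAs used to translate them. Both strands are copied into long precursors, and the mRNAs and rRNAs are released where the tRNAs between them are cut out. In the lens, the epithelium and the young fibre cells carry mitochondria, and fibre cells lose their mitochondria and nuclei as they mature. The nuclear genome also holds copies of mitochondrial DNA, so that a short read may match both.

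The libraries held between 18561682 and 18878768 reads, recovered from the deposited FPKM (fragments scaled by gene length and library size). Of the 9 markers of lens fibres, Lim2 was listed at 0 in every library and the other 8 were between 68.6 FPKM and 47631 FPKM, with 3515 to 3974 FPKM of Mip, the main membrane channel of lens fibres. Of the 6 markers of lens epithelium, Cryab, which fibres also express, had 21471 to 27108 FPKM and the transcription factor Foxe3 103 to 122 FPKM, while Pax6, Cdh1, Pdgfra and Gja1 had between 3.54 and 12.1 FPKM. The summed FPKM of 8 retina markers lay between 0.819 and 3.20, that of 6 markers of pigmented epithelium and iris between 0.634 and 1.34, that of 6 skeletal muscle markers between 0.109 and 0.294, that of 5 endothelial markers between 5.60 and 8.48 and that of 5 red blood cell markers between 17.2 and 34.9. All 5 macrophage markers had a higher mean in mutant lenses, at low levels, with summed FPKM of 1.72 and 1.78 against 0.774 and 0.444. The mutant mean was also higher for 7 of 8 retina, 5 of 9 fibre, 2 of 6 epithelium and 3 of 6 skeletal muscle markers. It was higher for 2 of 6 markers of pigmented epithelium and iris, 1 of 5 endothelial and 0 of 5 red blood cell markers. In the limma fit described below, 0 markers of each type had an adjusted p under 0.05. In bulk tissue, fewer cells of a type and less RNA per cell cannot be told apart.

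Sequences of members described below are shown first. The first set gives the tRNA for proline, which had the highest FPKM of the tRNAs, and the tRNAs for glutamate and glutamine, which had the largest fold changes among members with at least 10 reads in a library. They are transcripts of GENCODE vM21 (GRCm38), printed 5′ to 3′ with the anticodon in capitals.
mt-Tp: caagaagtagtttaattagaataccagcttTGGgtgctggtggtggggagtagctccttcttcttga
mt-Te: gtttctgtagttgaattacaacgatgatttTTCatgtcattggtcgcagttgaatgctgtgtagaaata
mt-Tq: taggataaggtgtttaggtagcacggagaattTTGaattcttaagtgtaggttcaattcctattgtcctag
All 3 are encoded on the minus strand, mt-Tp at MT 15356 to 15422, mt-Te at MT 14071 to 14139 and mt-Tq at MT 3772 to 3842.

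The next pair gives the first 90 bases of mt-Nd3, a subunit of complex I (MT 9459 to 9806, plus strand), and of Gm28438, its copy on chromosome 1. The only base that differs along the 345 aligned bases is in capitals. It is the substitution T3C, counted from 1 at the first base of mt-Nd3, with the base of mt-Nd3 first.
mt-Nd3: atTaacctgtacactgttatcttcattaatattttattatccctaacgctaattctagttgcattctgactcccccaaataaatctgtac
Gm28438: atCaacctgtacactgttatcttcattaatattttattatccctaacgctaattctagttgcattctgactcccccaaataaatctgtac
The last sequence is the whole of mt-Atp8, a subunit of the ATP synthase (MT 7766 to 7969, plus strand). Its capitals mark the 43 bases shared with the copy Gm10925, which are also the 43 bases where mt-Atp8 overlaps mt-Atp6.
mt-Atp8: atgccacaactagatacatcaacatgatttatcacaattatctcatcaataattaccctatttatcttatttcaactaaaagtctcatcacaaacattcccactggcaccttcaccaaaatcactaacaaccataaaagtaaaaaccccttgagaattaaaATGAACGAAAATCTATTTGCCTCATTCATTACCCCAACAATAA

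Mitochondrial genes took about 1 read in every 100 of these libraries, and most of those reads fell on 7 of the 13 mRNAs. In mutant replicates 1 and 2 the share of reads on the 37 genes was 0.960% (95% Wilson interval 0.956 to 0.965) and 0.900% (0.896 to 0.905). In control replicates 1 and 2 it was 0.812% (0.808 to 0.816) and 0.863% (0.858 to 0.867). These intervals cover counting error only. Between 96.2% and 96.9% of the mitochondrial reads were on mt-Co1, mt-Cytb, mt-Nd1, mt-Nd6, mt-Nd2, mt-Nd4 and mt-Nd5. The 2 rRNAs took 2.54% to 3.08% and the 22 tRNAs 0.251% to 0.301%.

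The most abundant member was mt-Co1 (MT 5328 to 6872), the catalytic core subunit of complex IV. Its FPKM was 2199 and 1986 in mutant replicates 1 and 2, and 1779 and 2001 in control replicates 1 and 2. It ranked 20 among all genes of the table by mean FPKM. The next was mt-Cytb (MT 14145 to 15288), the mitochondrial subunit of complex III, with 1905 and 1534 FPKM in mutant and 1420 and 1534 FPKM in control lenses.

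The 5 other abundant mRNAs encode subunits of complex I. The highest was mt-Nd1 (MT 2751 to 3707), with 1159 and 1026 FPKM in mutant and 871 and 960 FPKM in control lenses. For mt-Nd2 (MT 3914 to 4951) the values were 783 and 561 FPKM against 555 and 644 FPKM. For mt-Nd4 (MT 10167 to 11544) they were 634 and 516 FPKM against 465 and 533 FPKM. In each of these, mutant replicate 1 was the highest and control replicate 1 the lowest library, and the groups were separated for mt-Nd1 alone.

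The same held for the remaining pair, which lie on opposite strands and overlap by 14 bases. The gene mt-Nd5 (MT 11742 to 13565, plus strand) had 571 and 465 FPKM in mutant and 438 and 528 FPKM in control lenses. Its neighbour mt-Nd6 (MT 13552 to 14070) is the only mRNA of the minus strand, and had 798 and 603 FPKM against 561 and 615 FPKM. Whether reads were counted by strand is not given in the sources used here, so reads of mt-Nd6 and of RNA from the opposite strand cannot be told apart. The ratio of mt-Nd6 to the summed FPKM of the 12 other mRNAs was 0.109 and 0.0981 in mutant and 0.101 and 0.0985 in control lenses, and the groups overlapped (two-sided exact permutation p = 1, where 2 against 2 libraries cannot go below 0.33).

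The order of the 7 abundant mRNAs by FPKM hardly varied between libraries. mt-Co1 exceeded mt-Cytb in 4 of 4 libraries, although their ranges over the libraries overlapped. mt-Cytb exceeded mt-Nd1, and mt-Nd1 exceeded mt-Nd6, with ranges that did not overlap. The ranges of mt-Nd6 and mt-Nd2 overlapped, as did those of mt-Nd2 and mt-Nd4 and those of mt-Nd4 and mt-Nd5. Within this order the position of mt-Nd6 before mt-Nd2 held in 3 of 4 libraries, and every other neighbouring pair kept its order in 4 of 4. The highest mean FPKM was 3.98 times the lowest, and no gene of the 7 differed by more than 1.42-fold between libraries.

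The rRNAs of the mitochondrial ribosome lay below these mRNAs. The small subunit rRNA mt-Rnr1 (MT 70 to 1024) had 111 and 110 FPKM in mutant and 87.1 and 97.7 FPKM in control lenses. The large subunit rRNA mt-Rnr2 (MT 1094 to 2675) had 111 and 101 FPKM in mutant and 72.1 and 91.2 FPKM in control lenses. Both mutant libraries lay above both control libraries for each rRNA. Poly(A) libraries recover rRNA and tRNA in part only, so these levels do not measure the amount of either RNA in the tissue. The ratio of rRNA to mRNA in summed FPKM was 0.0274 and 0.0313 in mutant and 0.0260 and 0.0275 in control lenses, and the groups overlapped (two-sided exact permutation p = 0.667).

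**Figure D1:**
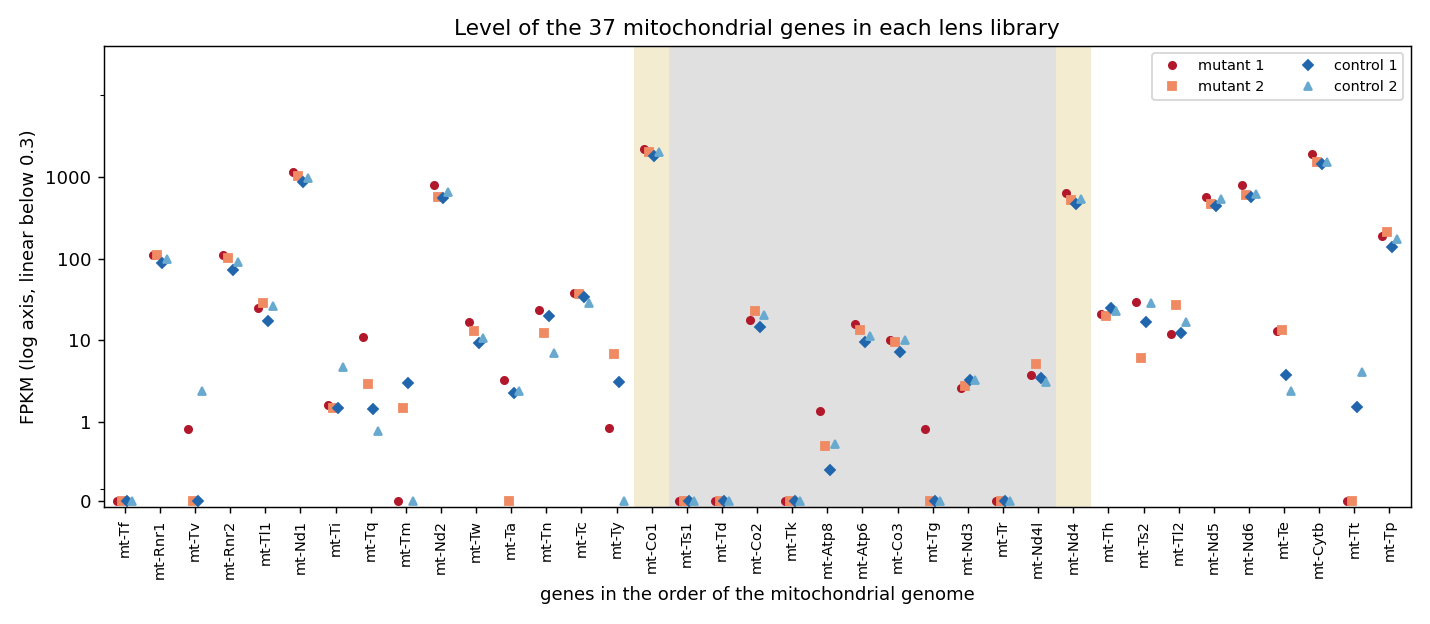
FPKM of the 37 mitochondrial genes (vertical axis, logarithmic and linear below 0.3) in the order of the mitochondrial genome (horizontal axis), with a point for each of the 2 mutant and 2 control libraries. Grey marks the 11 genes inside the stretch that has copies on chromosome 1 and yellow the 2 genes partly inside it; the grey genes are at most 22.8 FPKM, while the 7 abundant mRNAs are all at 438 FPKM or more.

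The other 6 mRNAs were far lower, although all but mt-Atp6 and mt-Atp8, of the ATP synthase, are parts of the same complexes. Their FPKM lay between 0.252 and 22.8, and the lowest value of the 7 abundant mRNAs was 19.2 times the highest value of these 6. The median of their mean FPKM was 6.55, against 644 for the 7. All 6 lie next to each other between mt-Co1 and mt-Nd4 on the mitochondrial genome. Subunits of complex IV were thus split, with mt-Co1 high and mt-Co2 and mt-Co3 low, and so were those of complex I, with mt-Nd3 and mt-Nd4l low.

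These 6 low mRNAs lie within a stretch of mitochondrial DNA that is also present in the nuclear genome. The deposited table lists 7 copies on chromosome 1 between positions 24650616 and 24655278 on the minus strand, in the positions of the table, whose build is mm39 according to the submitters' processing notes. In order along that strand they match parts of mt-Co1 (Gm29216), mt-Co2 (Gm28661), mt-Atp6 (Gm10925), mt-Co3 (Gm28437), mt-Nd3 (Gm28438), mt-Nd4l (Gm10222) and mt-Nd4 (Gm28439). The copies follow the order of the mitochondrial genes from MT 6381 to MT 11042, a span of 4662 bases. Of the 6 distances between neighbouring copies, 5 equal the distance between the mitochondrial genes, and the other is 419 bases against 418.

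Over their aligned lengths, the copies of mt-Co2, mt-Atp6, mt-Co3, mt-Nd4l and mt-Nd4 are identical to the mitochondrial gene. Gm28438 differs from mt-Nd3 at 1 base, shown above, and Gm29216 differs from mt-Co1 at 6 of 492 bases. Each mitochondrial transcript was compared in words of 31 bases with all nuclear transcripts of GENCODE vM21. For mt-Co2, mt-Atp6, mt-Co3, mt-Nd4l and mt-Nd3, between 98.1% and 100% of the words also occurred in a nuclear transcript. The share was 63.9% for mt-Co1 and 62.8% for mt-Nd4, and at most 16.8% for the other 5 abundant mRNAs. For mt-Co1, Gm29216 shares 449 words and Gm13340 on chromosome 2 shares 685. Gm13340 is 97.6% identical to mt-Co1 over 1545 bases and had 11 to 16 reads in a library. Chromosome 2 also holds copies of mt-Co2 (Gm13341) and mt-Nd2 (Gm13339), with 308 and 136 shared words.

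A high share of shared words and a low level went together in 5 of the 13 mRNAs, and mt-Atp8 stood apart with 7.47% shared words. Its 43 shared bases are those printed in capitals above, and it had 5 and 2 reads in mutant and 1 and 2 reads in control lenses. It lies inside the duplicated span, between the annotated copies Gm28661 and Gm10925, and the nuclear sequence between those copies was not analysed here. How the counting treated reads that match several places is not given in the sources used here, and its part in these levels was not tested.

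**Figure D2:**
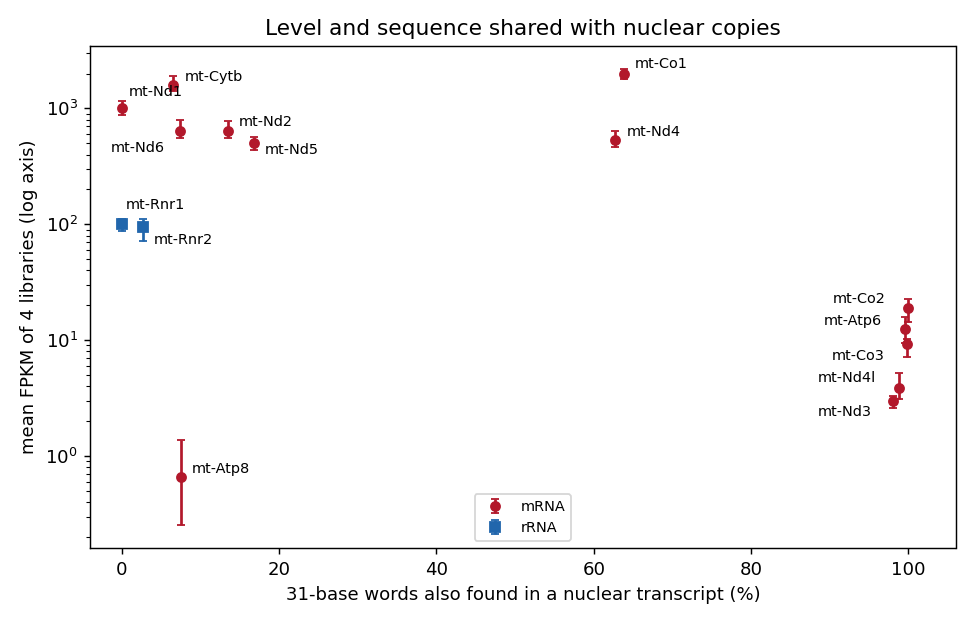
Mean FPKM of the 13 mRNAs and 2 rRNAs over the 4 libraries (vertical axis, logarithmic, bars from the lowest to the highest library) against the percent of their 31-base words that also occur in a nuclear transcript (horizontal axis). mt-Co2, mt-Atp6, mt-Co3, mt-Nd4l and mt-Nd3 sit at 98.1% or more and below 22.8 FPKM, mt-Co1 and mt-Nd4 sit near 63% at high levels, and mt-Atp8 is low at 7.47%.

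Of the complex IV subunits in the span, mt-Co2 (MT 7013 to 7696), which carries the entry site of electrons from cytochrome c, had 17.6 and 22.8 FPKM in mutant and 14.4 and 20.5 FPKM in control lenses. mt-Co3 (MT 8607 to 9390) had 10.0 and 9.51 FPKM against 7.22 and 10.2 FPKM. The groups overlapped for both. mt-Atp6 (MT 7927 to 8607), a subunit of the proton channel of the ATP synthase, had 15.98 and 13.2 FPKM in mutant and 9.51 and 11.4 FPKM in control lenses, with both mutant libraries above both controls.

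The complex I subunits in the span were lower still. mt-Nd4l (MT 9877 to 10173) had 3.78 and 5.16 FPKM in mutant and 3.46 and 3.11 FPKM in control lenses. mt-Nd3 had 2.58 and 2.79 FPKM in mutant and 3.25 and 3.27 FPKM in control lenses, the only mRNA in which both mutant libraries lay below both controls. Its 16 and 19 mutant and 22 and 21 control reads give this difference little precision.

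The 7 copies together held more reads than the 11 members inside the span. This total includes Gm29216 and Gm28439, whose members mt-Co1 and mt-Nd4 lie only partly inside the span and are not among the 11. It did not hold for each pair, as Gm28661 had fewer reads than mt-Co2 in every library. In the 4 libraries the 11 members inside the span had 471 to 678 reads together, and the 7 copies 916 to 1258. The most abundant copy, and the highest of the 23 nuclear genes that share a 31-base word with a mitochondrial transcript, was Gm28438 (chromosome 1, 24651856 to 24652200). It had 542 and 397 reads in mutant and 354 and 434 reads in control lenses, and its mean FPKM was 22.5 times that of mt-Nd3. Of the summed reads of this pair, 95.7% were counted on the nuclear copy. The pair differs at 1 base of the reference, and the base that the mice of this FVB/N line carry there was not examined. Transcripts of mt-Nd3 and of the copy therefore cannot be told apart by these counts. Of the 23 nuclear genes, 9 were at 0 in all libraries.

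The next copies by mean FPKM were Gm28437 (24652270 to 24653052), the copy of mt-Co3, and Gm10925 (24653055 to 24653732), the copy of mt-Atp6. Gm28437 had 232 and 178 mutant and 147 and 170 control reads, and took 57.2% of the summed reads of its pair. Gm10925 had 179 and 164 mutant and 122 and 155 control reads, and took 49.2%. For mt-Co2 and mt-Nd4l the copies took 38.7% and 64.8%. For mt-Nd4, whose copy is identical over 876 of its 1378 bases, the copy took 0.461%, and for mt-Co1 it took 0.0925%.

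When the reads of member and copy were summed, a choice made after seeing the data, the direction changed for mt-Nd3 and mt-Nd4l. The pair mt-Nd3 and Gm28438 had 558 and 416 reads in mutant and 376 and 455 reads in control lenses, a log2 difference of 0.24 on the deposited scale in place of -0.28 for mt-Nd3 alone. The pair mt-Nd4l and Gm10222 had a log2 difference of -0.01 in place of 0.43. For mt-Atp6 the difference was 0.41 in the sum and 0.48 alone, and both mutant libraries stayed above both controls. Reads of identical stretches cannot be told apart in this table, which bears on mt-Co2, mt-Atp6, mt-Co3, mt-Nd4l and mt-Nd3. It also bears on parts of the abundant mt-Co1 and mt-Nd4, with 63.9% and 62.8% shared words. Its effect on their FPKM, and on their place in the order of the abundant mRNAs, was not tested.

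**Figure D3:**
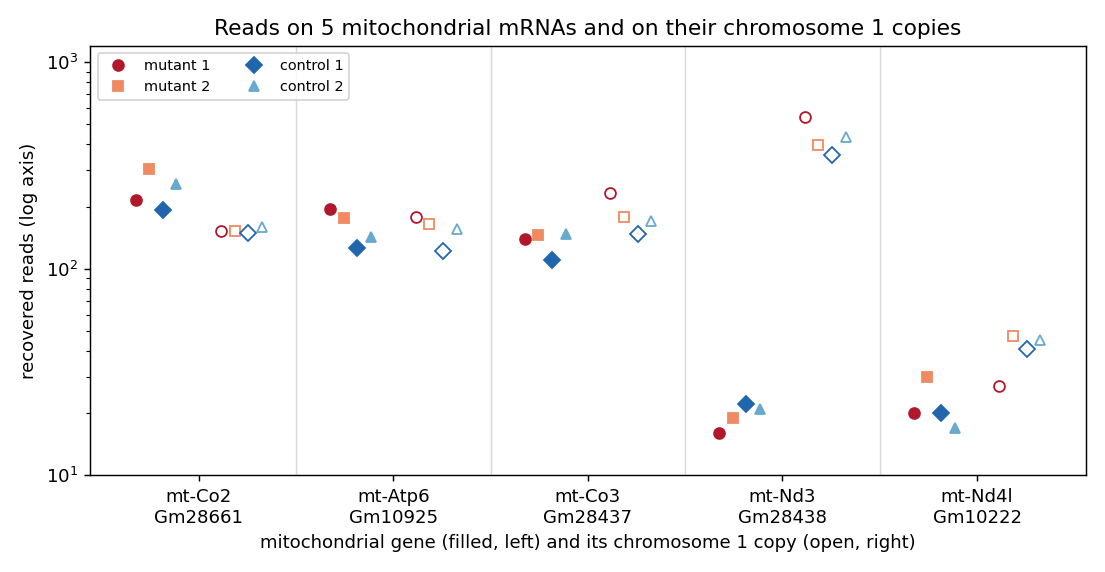
Recovered reads (vertical axis, logarithmic) of 5 mitochondrial mRNAs (filled points) and of their chromosome 1 copies (open points) in the 2 mutant and 2 control libraries. The copy Gm28438 has 354 to 542 reads where mt-Nd3 has 16 to 22, whereas the copies of mt-Atp6 and mt-Co3 lie close to their members.

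The tRNAs were read unevenly. They are 59 to 75 bases long, 14 on the plus and 8 on the minus strand. As for mt-Nd6, their reads and those of RNA from the opposite strand cannot be told apart, mt-Tp, mt-Te and mt-Tq included. The highest was mt-Tp (proline), printed above, with 187 and 211 FPKM in mutant and 140 and 173 FPKM in control lenses, and it was the only tRNA above the rRNAs. mt-Tc (cysteine) followed with 37.4 and 36.4 FPKM against 33.5 and 28.8 FPKM. Both mutant libraries lay above both controls for each. mt-Tl1 (leucine), next to mt-Rnr2, had 24.7 and 28.6 FPKM against 17.1 and 26.0 FPKM.

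Of the tRNAs between mt-Nd4 and mt-Nd5, mt-Ts2 and mt-Tl2 varied more, by 4.86-fold and 2.31-fold between libraries, and mt-Th did not (1.24-fold). mt-Th (histidine) had 20.9 and 19.8 FPKM in mutant and 24.6 and 22.7 FPKM in control lenses, with both mutant libraries below both controls. mt-Ts2 (serine) had 29.5 and 6.06 FPKM against 16.6 and 28.5 FPKM, and mt-Tl2 (leucine) 11.9 and 27.3 FPKM against 12.3 and 16.8 FPKM. In these last 2 the mutant libraries were further apart than the groups. mt-Tn (asparagine) varied likewise, with 23.7 and 12.2 FPKM against 19.6 and 6.88 FPKM.

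mt-Te (glutamate), printed above, lies between mt-Nd6 and mt-Cytb and had 16 and 18 reads in mutant and 5 and 3 reads in control lenses. mt-Tq (glutamine), between mt-Nd1 and mt-Nd2, had 14 and 4 reads against 2 and 1. mt-Tw (tryptophan) had 20 and 17 reads against 12 and 13. In all 3 the mutant libraries lay above both controls, on few reads. A further 5 tRNAs were at 0 in every library, mt-Tf, mt-Ts1, mt-Td, mt-Tk and mt-Tr, of which all but mt-Tf lie inside the span with chromosome 1 copies. At this depth a count of 0 allows up to 3 reads, a limit that covers counting error only.

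Another 8 members had fewer than 10 reads in every library, so no fold is given for them. They were mt-Atp8 and the tRNAs mt-Ty (tyrosine), mt-Ti (isoleucine), mt-Ta (alanine), mt-Tm (methionine), mt-Tv (valine), mt-Tg (glycine) and mt-Tt (threonine). The exception is mt-Tt, with 0 reads in both mutant and 2 and 5 in control libraries. With mutant lenses set at a bound of 3 reads over the group, it was 2.33-fold lower in them. This bound takes the few control reads as exact, so it is not a lower limit of the fold. The ratio of tRNA to mRNA in summed FPKM was 0.0473 and 0.0564 in mutant and 0.0472 and 0.0481 in control lenses (two-sided exact permutation p = 0.667).

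To ask whether the mitochondrial genes differed between genotypes, every gene whose FPKM averaged 0.1 or more entered 1 limma fit on log2(FPKM + 0.1), and fold changes are given as log2 of mutant over control. Of the 37 members, 32 passed this filter. At an adjusted p under 0.05, limma called 0 of the 32 members, against 6 of 15997 genes (0.0375%). Limma's voom on the recovered reads also called 0 of 32, against 14 genes (0.0875%). Adjusted p-values of members ranged from 0.157 to 0.970 in limma with Benjamini-Hochberg adjustment over all genes. The 2 replicates per genotype are libraries of pooled lenses, and neither the labels nor the study's methods state whether their mice differ. The p-values measure the spread between such libraries, with the variances of limma moderated over all genes.

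Below these thresholds the differences of most members were small and in 1 direction. Among the 24 members with at least 10 reads in a library, 21 had a positive log2 fold change, with a median of 0.25. Over all 32 members tested, 24 were positive and the median was 0.24, whether mt-Tt was taken at its fitted value or at its bound. Over all 15997 genes, 50.7% were positive and the median was 0.004. Members in the low range could reach 10 reads through their high group alone, as mt-Tq and mt-Te did, and the mRNAs share their precursors and libraries, so these counts are a description.

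The 7 abundant mRNAs all had a positive log2 fold change, between 0.10 for mt-Nd5 and 0.25 for mt-Nd1. Their standard errors were 0.13 to 0.19, and none passed the test in limma or voom. Among them mt-Nd1 alone had groups that did not overlap. The log2 fold change of mt-Co1 was 0.15 (SE 0.14, limma adjusted p = 0.823) and that of mt-Cytb 0.21 (SE 0.15, limma adjusted p = 0.811). That of mt-Nd1 was 0.25 (SE 0.13, limma adjusted p = 0.811). With each library left out in turn, these ranged from 0.063 to 0.232 for mt-Co1, from 0.0558 to 0.368 for mt-Cytb and from 0.167 to 0.341 for mt-Nd1. The rRNAs had log2 fold changes of 0.26 for mt-Rnr1 (SE 0.10, limma adjusted p = 0.787) and 0.39 for mt-Rnr2 (SE 0.14, limma adjusted p = 0.783), with ranges of 0.176 to 0.341 and 0.217 to 0.555 when a library was left out.

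At an unadjusted p under 0.05, limma found 6 members higher in mutant lenses, where 3.39% of all genes tested were higher by the same rule, and 1 member lower, where 2.92% of all genes were. The higher members were mt-Rnr1, mt-Rnr2, mt-Atp6, mt-Tw, mt-Te and mt-Tq, and the lower one was mt-Tt. Voom gave 8 of the 32 members an unadjusted p under 0.05 in either direction, against 1189 of 15997 genes (7.43%). Of the higher members listed, mt-Rnr1, mt-Rnr2, mt-Atp6 and mt-Te were under 0.05 in voom too. mt-Tw (voom unadjusted p = 0.308) and mt-Tq (voom unadjusted p = 0.0616) were not. mt-Tw had 12 to 20 reads in a library, mt-Te 3 to 18 and mt-Tq 1 to 14. The log2 fold change was 0.48 for mt-Atp6 (SE 0.15, limma adjusted p = 0.736) and 0.58 for mt-Tw (SE 0.16, limma adjusted p = 0.689). It was 2.11 for mt-Te (SE 0.22, limma adjusted p = 0.157) and 2.32 for mt-Tq (SE 0.66, limma adjusted p = 0.706). With a library left out, mt-Tq ranged from 1.36 without mutant replicate 1 to 3.27 without mutant replicate 2, and mt-Te from 1.79 to 2.43.

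Both mutant libraries lay above both control libraries in 10 of the 32 members tested, where 18.2% of all genes did so. They lay below both in 3 members, mt-Th, mt-Nd3 and mt-Tt, where 18.3% of all genes did so. The 10 were mt-Nd1, mt-Rnr1, mt-Rnr2, mt-Atp6, mt-Nd4l, mt-Tp, mt-Tc, mt-Tw, mt-Te and mt-Tq.

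**Figure D4:**
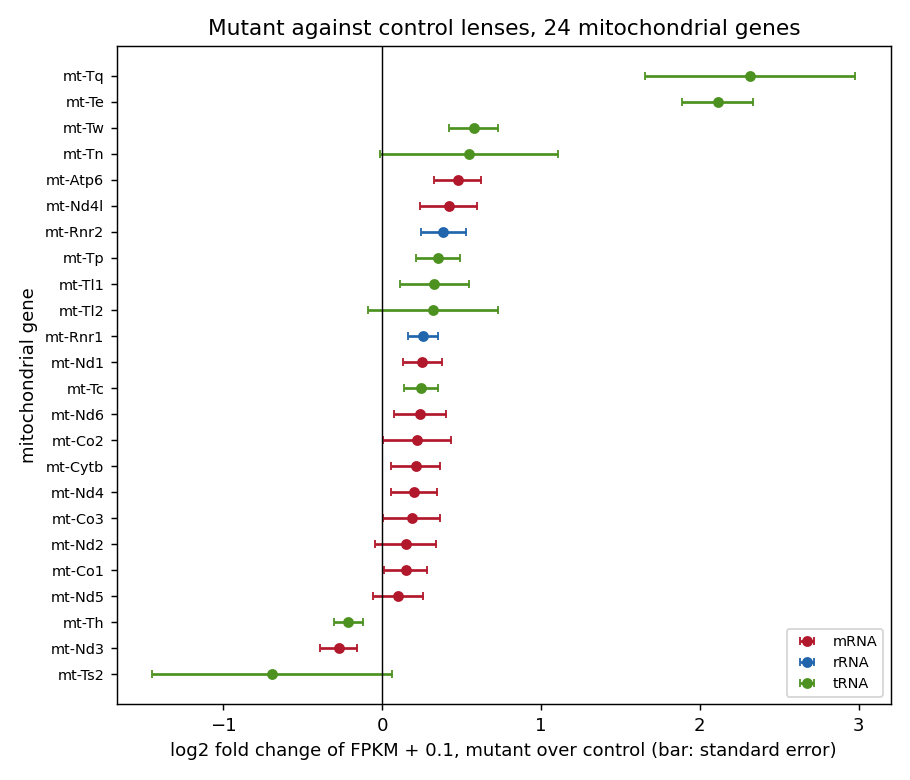
Log2 fold change of FPKM + 0.1, mutant over control (horizontal axis, bars show the standard error of limma), for the 24 mitochondrial genes with at least 10 reads in a library (vertical axis, sorted), coloured by mRNA, rRNA or tRNA. Most lie between 0.10 and 0.58; mt-Te and mt-Tq lie above 2 on few reads, and mt-Th, mt-Nd3 and mt-Ts2 are negative.

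Summed over the 37 genes, the level was 8705 and 7338 FPKM in mutant and 6575 and 7383 FPKM in control lenses, or 8021 ± 967 against 6979 ± 572 (SD, n = 2). Mutant replicate 2 lay just below control replicate 2, so the groups overlapped, with a log2 difference of 0.20 (two-sided exact permutation p = 0.667). As a share of all recovered reads the groups did not overlap, at 0.930% ± 0.042 against 0.838% ± 0.036 (SD, n = 2), and the two-sided exact permutation p was 0.33, the smallest that 2 against 2 libraries allow.

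The scaling of the libraries decided whether the groups were separated. For mutant replicates 1 and 2 the deposited FPKM were scaled by 0.944 and 1.05 times the recovered reads, and for control replicates 1 and 2 by 1.05 and 0.987 times. Per all recovered reads, the summed level was 8172 and 7649 in mutant and 6848 and 7243 in control lenses, with a log2 difference of 0.17. Per reads outside crystallin genes it was 8684 and 7292 against 6591 and 7428, and the groups overlapped as they did on the deposited scale.

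Within each genotype, the same library was the higher one in all 7 abundant mRNAs, but not in all members. Mutant replicate 1 was above mutant replicate 2, and control replicate 2 above control replicate 1, in 7 of the 7 abundant mRNAs and in 13 of the 24 members with at least 10 reads. The same 2 libraries had the larger share of reads on crystallin genes, 62.9% and 61.5% against 58.6% and 59.0%. They also had the lower FPKM of Xist, the RNA of the inactive X chromosome, at 7.62 and 5.56 against 13.1 and 15.6. Sex composition of the pools, crystallin share and the scaling cannot be told apart here, and their part in the mitochondrial levels was not tested.

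**Figure D5:**
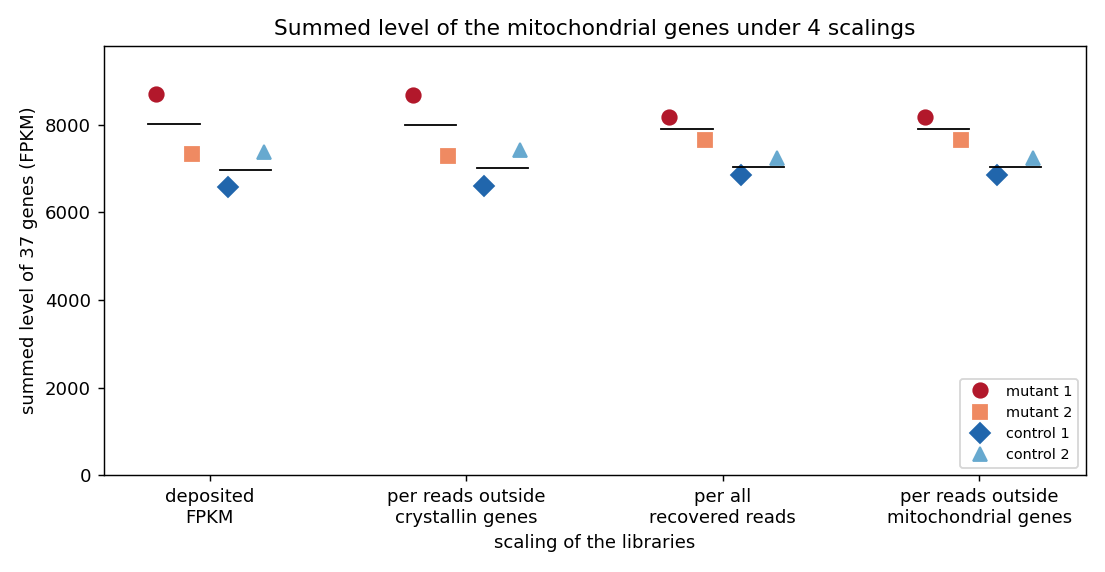
Summed level of the 37 mitochondrial genes in FPKM (vertical axis from 0) in the 2 mutant and 2 control libraries under 4 scalings (horizontal axis), with black lines at the group means. On the deposited scale and per reads outside crystallin genes the groups overlap; per all recovered reads, and per reads outside mitochondrial genes, both mutant libraries lie above both controls.

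Nuclear genes that copy, transcribe, process or translate the mitochondrial genome were read from the same fit. The lists were drawn up from textbook functions, and limma called 0 of their members at an adjusted p under 0.05, as did voom. Of the 12 genes of mitochondrial DNA replication and maintenance, 0 were higher and 1 lower at an unadjusted p under 0.05, with a median log2 fold change of 0.08. Lig3, the ligase that seals mitochondrial DNA, had 1.14 and 1.42 FPKM in mutant and 1.89 and 1.99 FPKM in control lenses (log2 fold change -0.57, limma adjusted p = 0.706). Tfam, which packages mitochondrial DNA and starts its transcription, had 2.11 and 2.15 FPKM against 2.43 and 2.79 FPKM (log2 fold change -0.28, limma adjusted p = 0.811).

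Among the 10 genes of mitochondrial transcription, 0 had an unadjusted p under 0.05 and the median log2 fold change was -0.07. Mterf2, a member of the termination factor family, had 1.63 and 1.11 FPKM in mutant and 0.851 and 0.929 FPKM in control lenses. Of 19 genes of mitochondrial RNA processing and stability, 0 had an unadjusted p under 0.05, with a median of 0.02. Fastkd3 had 0.711 and 0.618 FPKM against 0.385 and 0.521 FPKM, and Prorp, the nuclease subunit that cuts the 5′ ends of mitochondrial tRNAs, had 0.403 and 0.424 FPKM against 0.531 and 0.621 FPKM. The groups did not overlap for either gene. Of 19 mitochondrial tRNA synthetases, 0 had an unadjusted p under 0.05, with a median of 0.05. Tars2, which charges the threonine tRNA, had 1.77 and 1.503 FPKM against 1.202 and 1.39 FPKM, and Gars 24.2 and 25.0 FPKM against 21.2 and 23.2 FPKM.

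The 2 largest lists hold the proteins of the mitochondrial ribosome and of the respiratory chain. Over all genes tested, 50.7% had a positive log2 fold change, and 3.39% were higher and 2.92% lower at an unadjusted p under 0.05. Of 77 mitochondrial ribosomal protein genes tested, 58 had a positive log2 fold change, the median was 0.12, and 2 were higher and 0 lower at an unadjusted p under 0.05. These were Mrpl55, with 7.70 and 6.66 FPKM in mutant and 5.01 and 5.49 FPKM in control lenses, and Mrpl1, with 1.24 and 1.08 FPKM against 0.659 and 0.821 FPKM. Of 79 nuclear subunits of the respiratory chain and ATP synthase, 60 were positive, the median was 0.11, and 2 were higher and 3 lower at an unadjusted p under 0.05. Ndufc2, a subunit of complex I, had 50.1 and 49.0 FPKM against 36.8 and 40.5 FPKM. Atp5k, a subunit of the ATP synthase, had 22.8 and 20.1 FPKM against 36.1 and 27.0 FPKM.

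Relative to the nuclear subunits, the mitochondrial mRNAs did not separate the genotypes. The summed FPKM of the 7 abundant mRNAs was 2.08 and 1.97 times that of 82 nuclear subunits in mutant and 1.70 and 2.03 times in control lenses (two-sided exact permutation p = 0.667). This ratio was added after seeing the data and does not depend on the scaling of the libraries.

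Regulators and measures of mitochondrial mass showed no calls either. Of 8 biogenesis regulators, 0 had an unadjusted p under 0.05, with a median log2 fold change of 0.08. Gabpa had 4.41 and 4.35 FPKM in mutant and 3.64 and 4.02 FPKM in control lenses, and Nrf1 0.573 and 0.720 FPKM against 0.725 and 0.807 FPKM. Of 15 genes of mitochondrial mass and mitophagy, 1 was higher and 0 lower at an unadjusted p under 0.05, with a median of 0.04. It was Bnip3, a receptor that marks mitochondria for removal, with 17.2 and 15.99 FPKM in mutant and 11.7 and 12.5 FPKM in control lenses (log2 fold change 0.45, SE 0.10, limma adjusted p = 0.580). Vdac3, a channel of the outer membrane, had 6.01 and 6.80 FPKM against 4.98 and 5.49 FPKM.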

How the data were processed

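Lens poly(A) RNA of pooled mice was extracted and sequenced by Novogene as 2 mutant and 2 control libraries. According to the study's methods, reads were aligned with HISAT2 and counted per gene with featureCounts, and the authors deposited FPKM of 56748 genes in 1 table with gene positions, for which the submitters' processing notes name mm39. Of the 37 mitochondrial genes, 37 have the same position in GENCODE vM21 (GRCm38). Strand setting and treatment of multiply matching reads are not given in the sources used here. Whole reads were recovered from FPKM times gene length, and 100% of values were whole within 0.1 of a read. Depth was 18561682 to 18878768 reads, so members with few reads are imprecise.

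Libraries were grouped by the genotype in their labels. Genes whose FPKM averaged 0.1 or more were fitted on log2(FPKM + 0.1) with limma 3.58.1 (R 4.3.3), lmFit and eBayes with a trend, without covariates, with Benjamini-Hochberg adjustment. This scale understates changes of low genes. Single values per library were tested with a two-sided exact permutation test (scipy 1.17.1). Words of 31 bases and sequences came from GENCODE vM21 transcripts. The limma and voom fits were tested on simulated data. Alternatives were the pseudocount, the filter, the scaling, the trend, voom, a replicate block, an Xist covariate, and leaving out each library.

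All members with at least 0.1 FPKM were named, and in nuclear lists the 2 genes with the smallest p. The members and lists were chosen with earlier results of these data known. The labels state no pairing of libraries by replicate number, and the fit used none. The deviations of same-numbered libraries from their group means had a correlation of -0.00508 over 15997 genes. A correlation over all genes cannot decide whether libraries were handled in pairs.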

Additional observations from a re-analysis of the deposited data

How the results depend on the processing

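Limma under each alternative, voom included, called 0 mitochondrial members and 0 genes of the nuclear lists. Over the whole table it called 6 genes in the fit reported, 2 with a pseudocount of 1, 1 without a filter, 2 at a mean FPKM of at least 1, 2 without a trend, 14 with voom and 1 with the Xist covariate. It called 0 when any 1 library was left out. With the replicate block there were 3, although the labels state no pairing. The cause was not tested. The lowest adjusted p of a member under any alternative was 0.10. The number of members with a positive log2 fold change stayed between 22 and 26 against 24, and their median between 0.164 and 0.346 against 0.244. The log2 difference of the summed FPKM lay between 0.0748 and 0.321 with 1 library left out, and between 0.167 and 0.198 under the other scalings.

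Under the 11 alternatives that kept all libraries, 0 of the log2 fold changes of the 24 members with at least 10 reads changed direction. Most of these alternatives could not change it. The filter, the trend, the replicate block and the Xist covariate leave a log2 fold change as it is in this design. Median-ratio rescaling left the values unchanged, and the other scalings shift all genes nearly alike. The result therefore says little about robustness. Leaving out each library in turn turned 7. The log2 fold change then ranged from -0.0917 to 0.39 for mt-Nd2, from -0.0468 to 0.248 for mt-Nd5, from -1.83 to 0.438 for mt-Ts2, from -0.278 to 0.921 for mt-Tl2, from -0.198 to 1.3 for mt-Tn, from -0.0299 to 0.47 for mt-Co2 and from -0.0589 to 0.431 for mt-Co3. The negative values came without mutant replicate 1 for mt-Nd2, without mutant replicate 2 for mt-Tl2, without control replicate 2 for mt-Tn, without control replicate 1 for mt-Co2 and mt-Co3, and without either mutant replicate 1 or control replicate 1 for mt-Nd5. That of mt-Ts2 turned positive without mutant replicate 2. With the reads of the chromosome 1 copy added, chosen after seeing the data, it was 0.239 for mt-Nd3 and -0.0126 for mt-Nd4l. The log2 difference ranged from -0.0109 to 0.244 for the ratio of tRNA to mRNA and from -0.0221 to 0.134 for that of mt-Nd6 to the other mRNA. The other 17 of the 24 kept their direction without any 1 library, and the lowest and highest of these values were -0.328 for mt-Nd3 and 3.27 for mt-Tq. Depth limits the 8 members tested, 7 tRNAs and mt-Atp8, that had fewer than 10 reads in every library.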
